A study of Arabidopsis thaliana with 12 samples.

Results

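The WRKY transcription factors of Arabidopsis thaliana were described here from 56 listed gene codes, all of which were found among the 33602 loci of the expression table. They are family members that carry WRKY numbers between WRKY1 and WRKY75, with gaps. They were listed by family membership, but with earlier results of these data known. The list is not the whole family: 15 further annotated WRKY loci lie outside it, and 4 of those had a mean of at least 1 RPKM. RNA came from whole seedlings of the accession Columbia, grown for 11 days under continuous light on 1/2 MS medium with 2% sucrose, in 12 libraries, 2 for each of 6 groups. Untreated seedlings were wild type, lba1 (labelled upf1-/-), upf3-1 (labelled upf3-/-) or the double mutant lba1 upf3-1. Treated seedlings were wild type moved to liquid MS and held there for 4 h, either without an inhibitor (mock) or with cycloheximide at 10 µg/ml. Each group is represented by 1 column of RPKM (reads scaled to gene length and to the total of the column), so no difference below has a replicate check, and no SD or p-value can be given. The design compared control seedlings with seedlings in which nonsense-mediated decay (NMD) was impaired. NMD degrades mRNAs with early stop codons. UPF1 is its central helicase and UPF3 a partner of UPF1, while cycloheximide blocks the translation on which NMD depends.

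WRKY proteins are plant transcription factors named after the heptapeptide WRKYGQK, which contacts DNA, followed by a zinc finger. Their usual target is the W box, with TTGAC as its core. Many WRKY genes are themselves controlled through W boxes and respond early to pathogens, wounding, salicylic acid and senescence, and some encode activators and others repressors of defence. The family is divided into group I, group II with subgroups IIa to IIe, and group III, by the number of WRKY domains and the type of zinc finger.

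The columns rest on implied totals of 83.1 to 91.5 M reads, and a count of 3 reads corresponds to 0.0328 to 0.0361 RPKM for a transcript of 1 kb. UPF3 was at 13.1 RPKM in wild type, 4.95 in upf3-1 and 4.82 in lba1 upf3-1. UPF1 was at 20.7 in wild type and 24 in lba1, which does not check that label, since lba1 is a missense allele. Of the shoot markers, RBCS1A was at 9499.6 RPKM in wild type against 289.6 in the double mutant, and at 3068 in mock against 1104 under cycloheximide. The root marker CASP1 was at 6.26, 0.793, 3.97 and 0.155 in the same columns, and the seed storage genes CRU3 at 4.99, 95.2, 0.532 and 1.14 and SESA1 at 0.017, 2.63, 2.45 and 795. In lba1, CRU3 was at 27.1 and SESA1 at 4.50. All 3 shoot markers and 2 of the 3 root markers were lower by 2-fold or more in the double mutant. With cycloheximide this held for 2 shoot markers, CA1 being at 210.5 against 164 in mock, and for 3 root markers, and in mock against wild type for 2 and 1. Both seed markers were higher in lba1 and in the double mutant, and with cycloheximide SESA1 was higher. In mock SESA1 was higher and CRU3 lower. The part of these markers in the differences of the WRKY genes was not tested. In whole seedlings, fewer cells of a type and less RNA per cell cannot be told apart.

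The coding sequences in the TAIR10.1 reference annotation fit the usual grouping. Of the 11 group I members 10 encode the heptapeptide 2 times and WRKY10 once, and the other 45 members encode it once. All 10 group III members have a zinc finger of the C2HC type and the other 46 members one of the C2H2 type. The sixth codon of the heptapeptide is for glutamine in 54 members, and in WRKY50 and WRKY51 it is for lysine. The heptapeptide codons are shown for 5 members whose levels are described below, 5′ to 3′ on the coding strand, with the sixth codon in capitals.
WRKY40 (chr1:30384789-30384809, plus strand): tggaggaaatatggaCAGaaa
WRKY46 (chr2:19044313-19044333, minus strand): tggagaaaatatgggCAAaaa
WRKY75 (chr5:4150786-4150806, minus strand): tggaggaaatatggcCAAaag
WRKY50 (chr5:9147579-9147599, minus strand): tggagaaagtatgggAAGaag
WRKY51 (chr5:25908864-25908884, plus strand): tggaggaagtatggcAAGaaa

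The 250 bases before the annotated start of each gene were searched on both strands for the W box, written as TTGACC or TTGACT, with overlapping matches counted each. At least 1 match was found for 20 of the 56 members, or 35.7%, and for 28.4% of the windows of 27443 protein-coding genes. The windows of WRKY7, WRKY25, WRKY26, WRKY45 and WRKY61 overlap another annotated locus, and those of WRKY25, WRKY26 and WRKY45 had a match. Such overlaps were not counted for all genes. At least 2 matches were found for 10 members (17.9%) and for 6.18% of all windows. In windows of 1000 bases, 47 members (83.9%) and 67.3% of all genes had a match. WRKY30 was the only member with 3 matches in 250 bases, and WRKY41 and WRKY53 each had 2, with 1 on either strand. The windows of WRKY41 and WRKY53 also held the longest run of identical bases among the 1540 pairs of members, 19 bases that include a W box, ttGGTCAAattttcaaaca. The windows of these genes and of WRKY46, in which no match was found, are printed because these 4 group III members had some of the greatest cycloheximide differences. The cycloheximide differences of WRKY38 (5.96) and WRKY51 (4.91) exceeded those of WRKY41 and WRKY53. Their windows had no match in 250 bases and are not printed. Capitals mark the W boxes, on either strand.
WRKY30 (chr5:8154711-8154960, minus strand): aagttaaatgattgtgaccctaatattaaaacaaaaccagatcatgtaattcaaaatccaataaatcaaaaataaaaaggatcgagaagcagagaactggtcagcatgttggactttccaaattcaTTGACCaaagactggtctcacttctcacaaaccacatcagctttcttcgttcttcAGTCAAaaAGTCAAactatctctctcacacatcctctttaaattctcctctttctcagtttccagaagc
WRKY41 (chr4:6758848-6759097, plus strand): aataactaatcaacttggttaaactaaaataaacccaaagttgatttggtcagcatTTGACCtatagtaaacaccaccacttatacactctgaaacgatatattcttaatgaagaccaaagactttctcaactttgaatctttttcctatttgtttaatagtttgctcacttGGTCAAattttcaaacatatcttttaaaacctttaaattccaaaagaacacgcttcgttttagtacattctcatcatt
WRKY53 (chr4:12393983-12394232, minus strand): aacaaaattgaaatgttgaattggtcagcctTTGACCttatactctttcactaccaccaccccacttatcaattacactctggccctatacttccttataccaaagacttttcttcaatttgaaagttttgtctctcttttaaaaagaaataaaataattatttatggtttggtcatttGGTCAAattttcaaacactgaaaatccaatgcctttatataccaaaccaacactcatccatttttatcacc
WRKY46 (chr2:19044956-19045205, minus strand): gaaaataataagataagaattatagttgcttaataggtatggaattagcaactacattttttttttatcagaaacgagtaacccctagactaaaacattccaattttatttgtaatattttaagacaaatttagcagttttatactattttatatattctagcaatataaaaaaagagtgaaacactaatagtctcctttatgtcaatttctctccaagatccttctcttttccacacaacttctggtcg

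Taken as one pool of transcripts, the family summed to the least in lba1 and the most with cycloheximide, while its median member was lowest in wild type and highest in lba1 upf3-1. The RPKM of the 56 members summed to 385 in wild type, to 324, 538 and 1554 in lba1, upf3-1 and the double mutant, and to 1216 and 7995 in mock and cycloheximide. In that order, the sums are 0.0825%, 0.0697%, 0.112%, 0.34%, 0.267% and 1.64% of each column's summed RPKM. The median member was at 3.09 RPKM in wild type, at 3.64, 4.08 and 12.7 in the 3 mutants in the order above, and at 8.66 and 9.12 in mock and cycloheximide. The 5 most abundant members, WRKY40, WRKY33, WRKY18, WRKY46 and WRKY30, held 70.2% of the family's RPKM with cycloheximide. Without those 5, the sums in the same order were 315, 303, 382, 1292, 767 and 2380. The most abundant member was WRKY70 in wild type (36.6 RPKM), WRKY39 in lba1 (26.9), WRKY33 in upf3-1 (61.4), WRKY45 in the double mutant (132), WRKY33 in mock (239) and WRKY40 with cycloheximide (1523). The cycloheximide column was the highest of the 6 for 25 members and the lba1 upf3-1 column for 24, while lba1 was the lowest for 20. The same counts were not made over all loci, so these have no background beside them.

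**Figure D1:**
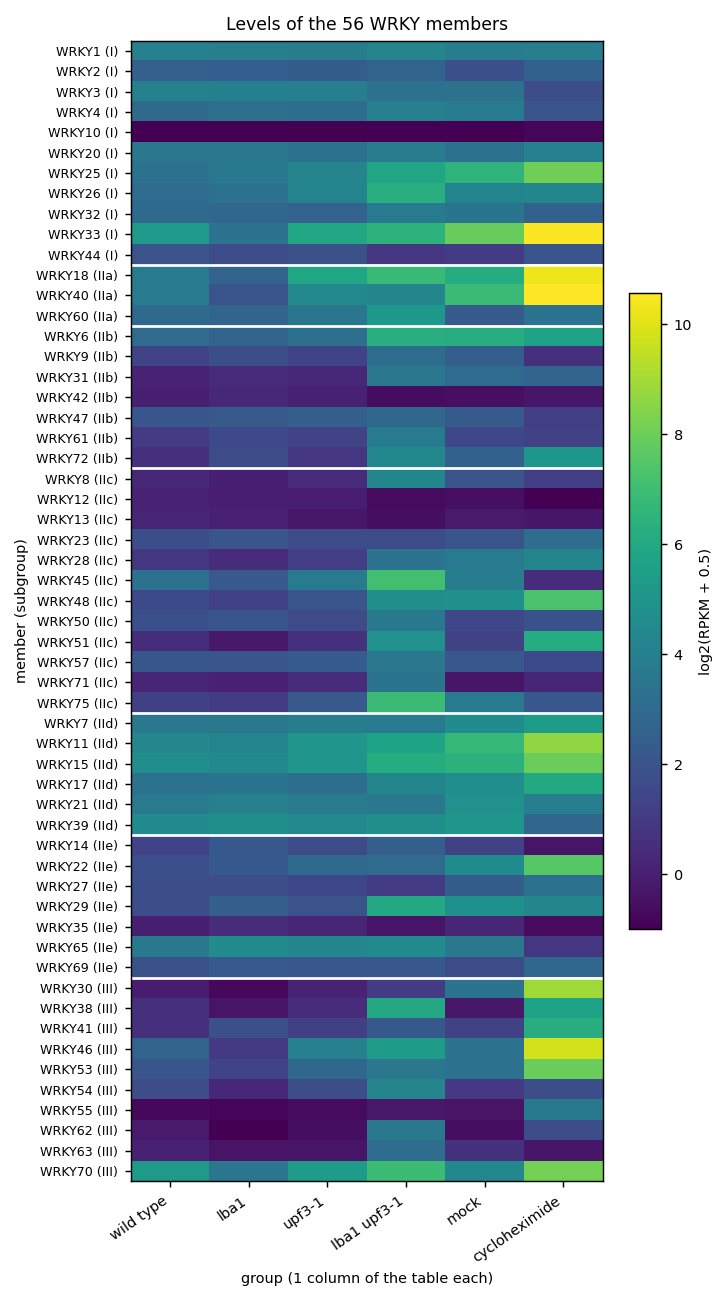
Levels of the 56 WRKY members as log2(RPKM + 0.5), 1 row per member ordered by subgroup and 1 column per group. The brightest cells are WRKY33, WRKY18, WRKY40 and WRKY46 in the cycloheximide column, and most members of subgroup IIb are brightest in lba1 upf3-1.

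Columns were compared on log2(RPKM + 0.5), where the pseudocount makes the change of low genes look smaller. Higher, lower and within 2-fold, and every rank of a difference, refer to this log scale with 0.5 added, on which 2-fold or more makes a call, for loci whose 6 columns average 1 RPKM or more. The rule is one of size and tests nothing. Of the 56 members 51 reached that mean, 4 of them (WRKY55, WRKY62, WRKY63 and WRKY71) through 1 high column, so their being past 2-fold somewhere is built into the filter. WRKY10, WRKY12, WRKY13, WRKY35 and WRKY42 stayed below it. Log2 differences are given against wild type for the mutants and mock, and against mock for cycloheximide. Over the 51 members and 5 comparisons, the error at 95% confidence, from counting alone, was 0.14 at the median and 0.28 at the 95th percentile.

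In lba1, 7 of the 51 members were lower and 2 higher than in wild type, where 1.64% and 5.43% of the 19829 loci were, and the median difference was −0.09 against 0.12 over all loci. In upf3-1, 5 members were higher (3.61% of all loci) and 0 lower (0.767%), with a median of 0.22 against 0.04. With both mutations, 34 members were higher (21.7% of all loci) and 1 was lower (22.2%), with a median of 1.53 against 0.07, and 21 were past 4-fold. Cycloheximide against mock gave 22 members higher (13.4% of all loci) and 9 lower (39.2%), with a median of 0.79 against −0.68. Mock against wild type gave 21 members higher (12.4% of all loci) and 0 lower (11.3%), with a median of 0.68 against 0.08. Without the 4 members that passed through 1 column, 31 of 47 were higher in lba1 upf3-1 and 20 with cycloheximide.

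**Figure D2:**
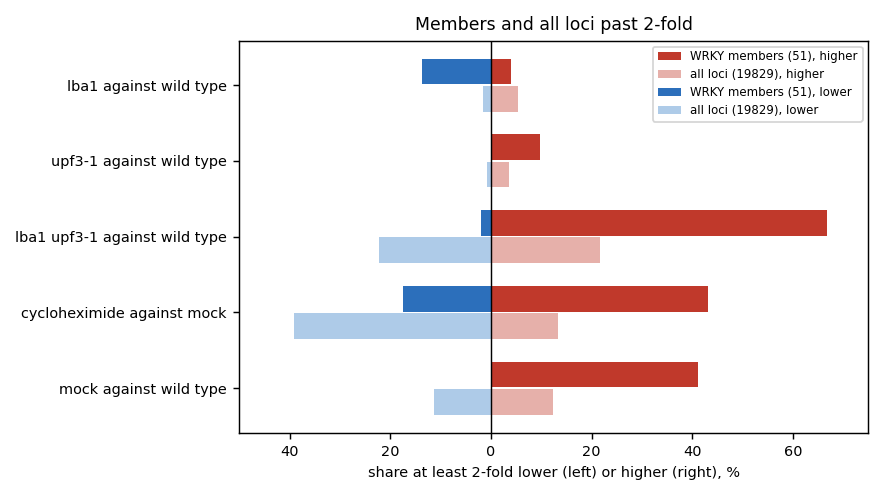
Share of the 51 WRKY members (dark bars) and of all 19829 loci (pale bars) that were at least 2-fold higher (right) or lower (left) in each comparison. Members higher in lba1 upf3-1 made up 66.7% against 21.7% of all loci, and members lower in lba1 13.7% against 1.64%.

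Scaling the columns to a common median shifted the median of all loci by 0.66 for cycloheximide against mock and by at most 0.14 in size for the other comparisons. After that scaling 30 members were higher with cycloheximide and 5 lower, and the share of higher genes among all loci past 2-fold went from 25.4% to 51.5%, or to 44.6% under quantile normalization. For lba1, the same share went from 76.8% to 62.9% or 61.4%, with 7 or 8 members lower and 1 higher.

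Subgroup IIa consists of WRKY18 (AT4G31800), WRKY40 (AT1G80840) and WRKY60 (AT2G25000), whose proteins bind one another and together limit basal defence. WRKY18 was at 13.6 RPKM in wild type against 5.65, 57.3 and 112 in lba1, upf3-1 and the double mutant, and at 72.1 and 1255 in the mock and cycloheximide columns. WRKY40 was at 13.3 RPKM without mutation or treatment, 3.46 in the lba1 mutant, 21.1 in the upf3-1 mutant, 19 in the double mutant, 118 in mock seedlings and 1523 in cycloheximide-treated ones. Both had their lowest value in lba1 and their highest with cycloheximide, with log2 differences from wild type of −1.19 and −1.80 in lba1 and from mock of 4.11 and 3.69 with cycloheximide. WRKY60 was at 7.24 RPKM in untreated wild type and at 6.31, 11.3 and 35.3 in the lba1, upf3-1 and double mutants, with 4.55 in mock and 10.0 under cycloheximide. Its highest value was in lba1 upf3-1 (2.21 from wild type), and its mock and cycloheximide values lay on both sides of wild type. The ratio of WRKY18 to WRKY60 ran from 0.896 in lba1 and 1.87 in wild type through 3.17 in the double mutant and 5.09 in upf3-1 to 15.8 in mock and 125 under cycloheximide. In upf3-1 WRKY18 had the greatest difference of the family, 2.04, with differences of 0.64 for WRKY40 and 0.60 for WRKY60. In lba1 upf3-1 the difference of WRKY18 was 3.00, while WRKY40, with 0.50, stayed within 2-fold.

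Group III held 4 of the 5 members with the greatest cycloheximide differences, the other being WRKY51 (AT5G64810) of subgroup IIc. Of its 10 genes, 8 were higher than in mock and 0 lower, with a median of 4.32, and 9 were higher in lba1 upf3-1 than in wild type, with a median of 2.11. Without WRKY55, WRKY62 (AT5G01900) and WRKY63, which passed the minimum mean through the cycloheximide or the double mutant column, these were 6 of 7 with a median of 4.89 and 7 of 7 with a median of 1.71. WRKY46 (AT2G46400), which takes part in basal resistance with WRKY53 (AT4G23810) and WRKY70 (AT3G56400), was at 6.12 RPKM in wild type against 1.46, 15.9 and 41.1 in lba1, upf3-1 and the double mutant, and at 10.11 and 879.8 in the mock and cycloheximide columns. Its level with cycloheximide was 87 times that in mock. Its log2 difference with 0.5 added was the greatest of the family (6.37), although WRKY38 (AT5G22570) had the greater plain ratio of 152. WRKY46 was lower in lba1 (−1.75) and higher in upf3-1 (1.31) and lba1 upf3-1 (2.65). WRKY53, a regulator of leaf senescence, was at 3.73 RPKM without mutation or treatment, 1.98 in the lba1 mutant, 7.11 in the upf3-1 mutant, 11.5 in the double mutant, 9.62 in mock seedlings and 240.2 in cycloheximide-treated ones, with differences of −0.77 in lba1, 1.51 in lba1 upf3-1 and 4.57 with cycloheximide. WRKY30 (AT5G24110), a stress-responsive partner of WRKY53, was at 0.444 RPKM in untreated wild type and at 0.087, 0.617 and 1.52 in the lba1, upf3-1 and double mutants, with 9.96 in mock and 483 under cycloheximide. It was at most at 1.52 RPKM in the untreated columns, with 3.47 for mock against wild type and 5.53 for cycloheximide against mock. WRKY41 (AT4G11070) was at 0.972 RPKM in wild type against 3.02, 1.75 and 4.06 in lba1, upf3-1 and the double mutant, and at 1.964 and 72.5 in the mock and cycloheximide columns. Unlike the other members named so far, WRKY41 was higher in lba1 than in wild type (1.26), and it was higher with cycloheximide (4.89) and in lba1 upf3-1 (1.63). The exons of WRKY41 and WRKY53 overlap other genes, whose values are given further on.

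WRKY70 and WRKY54 (AT2G40750) act together as negative regulators of salicylic acid synthesis and of leaf senescence. WRKY70 was at 36.6 RPKM without mutation or treatment, 11.1 in the lba1 mutant, 41.9 in the upf3-1 mutant, 121 in the double mutant, 20.7 in mock seedlings and 285 in cycloheximide-treated ones. WRKY54 was at 2.86 RPKM in untreated wild type and at 0.708, 2.78 and 18.6 in the lba1, upf3-1 and double mutants, with 1.39 in mock and 2.90 under cycloheximide. Both were lower in lba1 (−1.68 and −1.47) and higher in lba1 upf3-1 (1.71 and 2.51), but the cycloheximide difference was 3.75 for WRKY70 and 0.85 for WRKY54. Their ratio was between 6.49 and 15.7 in the other 5 columns and 98.2 with cycloheximide. In mock both were below wild type, at −0.80 and −0.83.

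WRKY38 and WRKY62 encode repressors of basal defence that bind the histone deacetylase HDA19. WRKY38 was at 0.998 RPKM in wild type against 0.285, 0.906 and 62.3 in lba1, upf3-1 and the double mutant, and at 0.344 and 52.2 in the mock and cycloheximide columns. It was low in 4 columns and reached similar levels in lba1 upf3-1 (5.39) and with cycloheximide (5.96). WRKY62 was at 0.39 RPKM without mutation or treatment, 0 in the lba1 mutant, 0.177 in the upf3-1 mutant, 11.8 in the double mutant, 0.175 in mock seedlings and 2.85 in cycloheximide-treated ones. Set against a floor of 3 reads in the lba1 column, its lba1 value of 0 was at least 12.5-fold lower than the wild type one. It too was highest in lba1 upf3-1 (3.79), with 2.31 for cycloheximide. WRKY55 was at or below 0.378 RPKM in 5 columns and at 12.1 with cycloheximide (4.07). WRKY63, known from abscisic acid and drought responses, reached 8.36 RPKM in lba1 upf3-1 (3.08) and was between 0.263 and 1.10 elsewhere, with −0.96 for cycloheximide. In plain RPKM WRKY63 was 3.44-fold lower with cycloheximide than in mock, and with a pseudocount of 0.1 it was called lower.

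**Figure D3:**
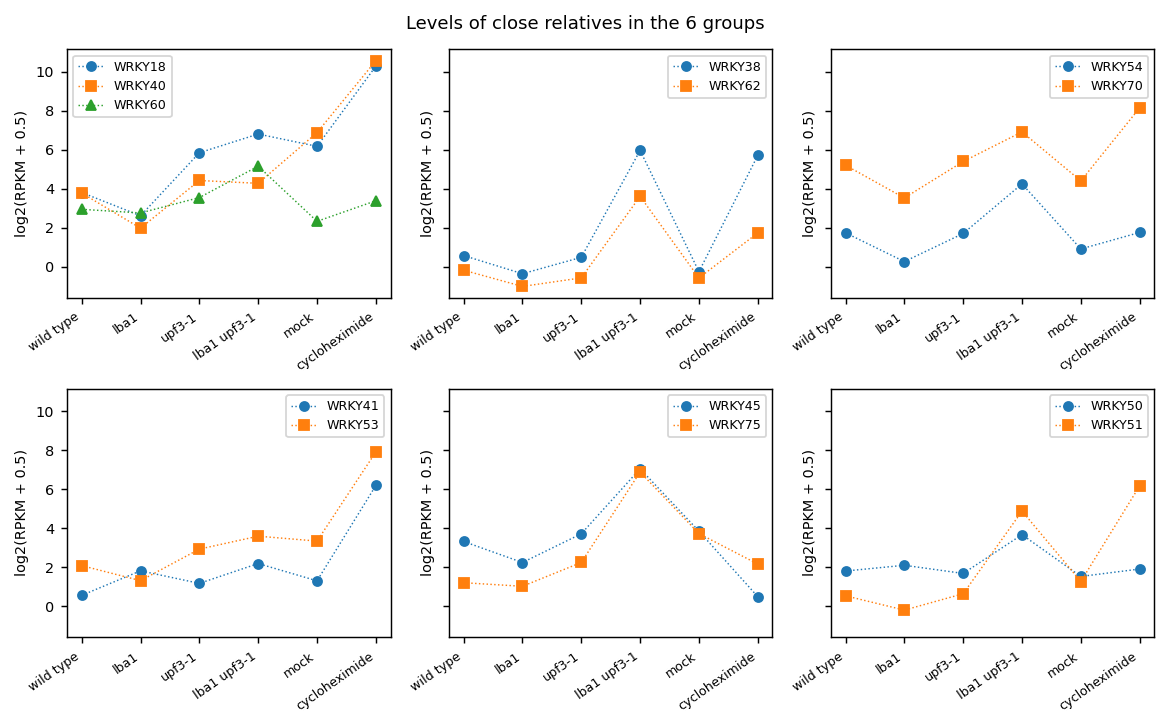
Levels of 6 sets of close relatives as log2(RPKM + 0.5) in the 6 groups; dotted lines only join the points of a gene. WRKY18 and WRKY40 part from WRKY60 in the mock and cycloheximide columns, WRKY70 from WRKY54 and WRKY51 from WRKY50 with cycloheximide, while WRKY45 and WRKY75 are both highest in lba1 upf3-1.

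In group I, 4 of the 10 members above the minimum mean were higher and 1 was lower in lba1 upf3-1, with a median of 0.54. WRKY33 (AT2G38470), a substrate of the MAP kinases MPK3 and MPK6 that activates camalexin synthesis, was at 36.5 RPKM in untreated wild type and at 9.96, 61.4 and 88.8 in the lba1, upf3-1 and double mutants, with 239 in mock and 1474 under cycloheximide. Its lba1 difference was the lowest of the family with 0.5 added (−1.82), at a plain ratio of 3.67-fold lower, where WRKY40, WRKY54, WRKY46 and WRKY30 were 3.84, 4.04, 4.18 and 5.1-fold lower and WRKY62 lower still. WRKY33 was higher in lba1 upf3-1 (1.27), mock (2.69) and cycloheximide (2.62), with 0.74 in upf3-1. WRKY25, which with WRKY26 and WRKY33 takes part in heat tolerance, was at 9.90 RPKM in wild type against 12.3, 18.5 and 57.3 in lba1, upf3-1 and the double mutant, and at 92.3 and 264 in the mock and cycloheximide columns. WRKY26 was at 7.63 RPKM without mutation or treatment, 9.45 in the lba1 mutant, 17.9 in the upf3-1 mutant, 77.2 in the double mutant, 18 in mock seedlings and 19.3 in cycloheximide-treated ones. Their lba1 differences were 0.30 and 0.29, both within 2-fold. WRKY26 was highest in lba1 upf3-1 (3.26) and close to mock with cycloheximide (0.10), whereas the differences of WRKY25 were 2.48 and 1.51.

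Among the other group I genes, WRKY4 and WRKY44 were past 2-fold in a mutant and the rest were not. WRKY1 lay between 14 and 18.9 RPKM in all 6 columns and WRKY20 between 9.73 and 16.5. WRKY2, a gene of seed germination and zygote polarity, lay between 3.02 and 6.08, with −0.75 for mock against wild type. WRKY3 and WRKY4, related genes of defence against necrotrophs, parted in lba1 upf3-1, at −0.72 and 1.07, and were both lower with cycloheximide, at −1.60 and −1.67. WRKY32 was at 7.36 RPKM in wild type and 13.5 in lba1 upf3-1 (0.83), with −0.32 in upf3-1. WRKY44 (TTG2), a gene of trichome and seed coat development, was the single member called lower in lba1 upf3-1, at 1.28 against 3.35 RPKM (−1.12). That call was lost with a pseudocount of 1, a minimum mean of 5 RPKM, quantile normalization or a 3-fold rule. WRKY44 was also the lowest in mock against wild type (−0.87). WRKY10 (MINI3), an endosperm gene, was at 0 in wild type, upf3-1 and lba1 upf3-1 and at most at 0.058 RPKM elsewhere.

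Subgroup IIc held 3 of the 5 greatest differences of lba1 upf3-1, those of WRKY75 (AT5G13080), WRKY51 and WRKY8, beside WRKY38 of group III and WRKY29 of IIe. Of its 10 members above the minimum mean 9 were higher, with a median of 3.18, or 8 of 9 with a median of 3.12 without WRKY71, which passed that minimum through the double mutant column. WRKY75, a gene of phosphate acquisition, root hair growth and leaf senescence, was at 1.81 RPKM in untreated wild type and at 1.53, 4.23 and 117 in the lba1, upf3-1 and double mutants, with 12.7 in mock and 3.97 under cycloheximide. The lba1 upf3-1 level was 64.8 times the wild type level (5.67), the greatest of the family, and WRKY75 was also higher in upf3-1 (1.04) and mock (2.52). WRKY45 (AT3G01970), its close relative, which activates the phosphate transporter gene PHT1;1, was at 9.48 RPKM in wild type against 4.23, 12.6 and 132 in lba1, upf3-1 and the double mutant, and at 13.9 and 0.903 in the mock and cycloheximide columns. It was higher in lba1 upf3-1 (3.73), lower in lba1 (−1.08) and, with cycloheximide, the lowest member of the family against mock (−3.36). The cycloheximide difference of WRKY75 was −1.56. PHT1;1 itself was at 16.5 RPKM in wild type against 14.5 in the double mutant, and at 31.3 in mock against 2.79 under cycloheximide.

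WRKY51 and WRKY50 (AT5G26170), the pair with the lysine codon shown above, are known from the repression of jasmonate signalling at low oleic acid levels. WRKY51 was at 0.947 RPKM without mutation or treatment, 0.371 in the lba1 mutant, 1.06 in the upf3-1 mutant, 28.9 in the double mutant, 1.91 in mock seedlings and 71.7 in cycloheximide-treated ones. WRKY50 was at 2.99 RPKM in untreated wild type and at 3.78, 2.71 and 12.2 in the lba1, upf3-1 and double mutants, with 2.38 in mock and 3.25 under cycloheximide. In lba1 upf3-1 both were higher (4.34 and 1.86), but the cycloheximide difference was 4.91 for WRKY51 and 0.38 for WRKY50, and their ratio ran from 0.098 in lba1 to 22.1 with cycloheximide. WRKY8, WRKY28 and WRKY71 form another set of relatives. WRKY8, which acts in wounding and virus defence, was at 0.716 RPKM in wild type against 0.505, 0.851 and 19.5 in lba1, upf3-1 and the double mutant, and at 3.34 and 1.67 in the mock and cycloheximide columns, with 4.04 for lba1 upf3-1. WRKY28, an activator of the salicylic acid gene ICS1, was at 1.34 RPKM without mutation or treatment, 0.892 in the lba1 mutant, 1.67 in the upf3-1 mutant, 10.2 in the double mutant, 12.7 in mock seedlings and 18.9 in cycloheximide-treated ones, so that mock and lba1 upf3-1 reached similar levels (2.84 and 2.53 from wild type). WRKY71, a gene of shoot branching, reached 10.6 RPKM in lba1 upf3-1 and lay between 0.32 and 0.875 elsewhere.

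WRKY48, a repressor of basal defence, was at 2.51 RPKM in untreated wild type and at 1.85, 3.64 and 25.8 in the lba1, upf3-1 and double mutants, with 27.8 in mock and 152 under cycloheximide, with differences of 3.12 in lba1 upf3-1, 3.23 in mock and 2.43 for cycloheximide. WRKY57, known from drought tolerance, was at 3.73 RPKM in wild type and 11.7 in lba1 upf3-1 (1.53). WRKY23, a gene of auxin-dependent root development, lay between 2.62 and 3.67 RPKM in 5 columns and was at 8.43 with cycloheximide (1.13). WRKY12 and WRKY13, which act in stem secondary walls and flowering time, did not exceed 0.583 and 0.658 RPKM, both in wild type.

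Subgroup IIb had 5 of the 6 members above the minimum mean higher in lba1 upf3-1, with a median of 2.96, and 1 higher and 2 lower with cycloheximide. WRKY6, a senescence gene and repressor of PHO1, was at 7.70 RPKM in wild type against 6.16, 9.19 and 74.8 in lba1, upf3-1 and the double mutant, and at 73.1 and 52.3 in the mock and cycloheximide columns. The lba1 upf3-1, mock and cycloheximide columns were all far above the untreated wild type and single mutants, with 3.20 and 3.17 from wild type and −0.48 for cycloheximide against mock. WRKY31 had the same 3 highest columns at lower levels, with 11.5 RPKM in the double mutant against 0.599 in wild type (3.45), 7.70 in mock (2.90) and 6.31 with cycloheximide (−0.27). WRKY42, the relative that also represses PHO1, lay between 0.158 and 0.752 RPKM and was lowest in lba1 upf3-1. WRKY72, which takes part in resistance to nematodes and oomycetes, was at 1.04 RPKM without mutation or treatment, 2.62 in the lba1 mutant, 1.28 in the upf3-1 mutant, 20.8 in the double mutant, 5.49 in mock seedlings and 33.8 in cycloheximide-treated ones, with 1.02 in lba1, 3.79 in lba1 upf3-1 and 2.52 for cycloheximide. WRKY61 was at 1.52 RPKM in wild type and 12.8 in lba1 upf3-1 (2.72), WRKY9 at 2.01 and 7.90 (1.74), and WRKY47 at 3.77 and 6.75 (0.76). With cycloheximide WRKY9 and WRKY47 were lower (−1.91 and −1.17), and the difference of WRKY61 was −0.26.

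Subgroup IId encodes calmodulin-binding WRKY proteins, and in untreated wild type WRKY15, WRKY39 and WRKY11 followed WRKY70 and WRKY33 as the most abundant members. WRKY11 was at 20.1 RPKM in untreated wild type and at 18.2, 32 and 52.4 in the lba1, upf3-1 and double mutants, with 103 in mock and 406 under cycloheximide. WRKY17, which with WRKY11 limits basal resistance, was at 9.88 RPKM in wild type against 10.6, 8.59 and 19.4 in lba1, upf3-1 and the double mutant, and at 24.9 and 65.5 in the mock and cycloheximide columns. Both were higher in mock (2.33 and 1.29) and again with cycloheximide (1.98 and 1.38), and the ratio of WRKY11 to WRKY17 lay between 1.71 in lba1 and 6.2 with cycloheximide. WRKY15, a gene of salt stress and mitochondrial signalling, was at 25.1 RPKM without mutation or treatment, 22 in the lba1 mutant, 32.3 in the upf3-1 mutant, 71.9 in the double mutant, 86.6 in mock seedlings and 245 in cycloheximide-treated ones, with 1.498, 1.77 and 1.49 for lba1 upf3-1, mock and cycloheximide. WRKY7 lay between 11.8 and 12.6 RPKM in wild type, lba1 and lba1 upf3-1, with 14.3 in upf3-1, 23.8 in mock and 39.8 with cycloheximide. WRKY21 was at 13.7 RPKM in wild type and 28 in mock (1.00), and at 11.8 in lba1 upf3-1 (−0.21). With cycloheximide WRKY21 was below mock but within 2-fold (−0.88). WRKY39, which is known from the heat response, was the 1 member of the subgroup called lower with cycloheximide. It was at 33.4 RPKM in mock and 6.62 with cycloheximide (−2.25), and between 21.4 and 26.9 in the mutants.

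In subgroup IIe, WRKY22 and WRKY29, both known as outputs of the MAP kinase cascade triggered by bacterial flagellin, went different ways. WRKY29 was at 2.86 RPKM in untreated wild type and at 5.11, 3.36 and 63.3 in the lba1, upf3-1 and double mutants, with 27.7 in mock and 19.3 under cycloheximide. WRKY22 was at 3.06 RPKM in wild type against 4.00, 7.33 and 7.84 in lba1, upf3-1 and the double mutant, and at 24 and 188 in the mock and cycloheximide columns. WRKY29 was highest in lba1 upf3-1 (4.25), with −0.51 for cycloheximide against mock, and WRKY22 was highest with cycloheximide (2.95), with 1.23 in lba1 upf3-1. Both were higher in mock (3.07 and 2.78), and WRKY22 was higher in upf3-1 (1.14) where the difference of WRKY29 was 0.20. WRKY65 was at 12.4 RPKM without mutation or treatment, 23.4 in the lba1 mutant, 19.3 in the upf3-1 mutant, 23.6 in the double mutant, 11.9 in mock seedlings and 1.27 in cycloheximide-treated ones, with 0.89 in lba1, 0.90 in lba1 upf3-1 and −2.81 with cycloheximide, the lowest after WRKY45. WRKY14 was at 4.12 RPKM in lba1 (0.89) and 5.08 in the double mutant (1.16) against 2.00 in wild type, and at 0.279 with cycloheximide against 1.86 in mock (−1.60). WRKY27, which affects wilt symptoms caused by Ralstonia, was at 2.96 RPKM in wild type and 1.502 in lba1 upf3-1 (−0.79), with −0.30 in upf3-1. WRKY69 was at 2.71 RPKM in mock and 6.89 with cycloheximide (1.20), and WRKY35, the relative of WRKY14, lay between 0.137 and 0.877.

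**Figure D4:**
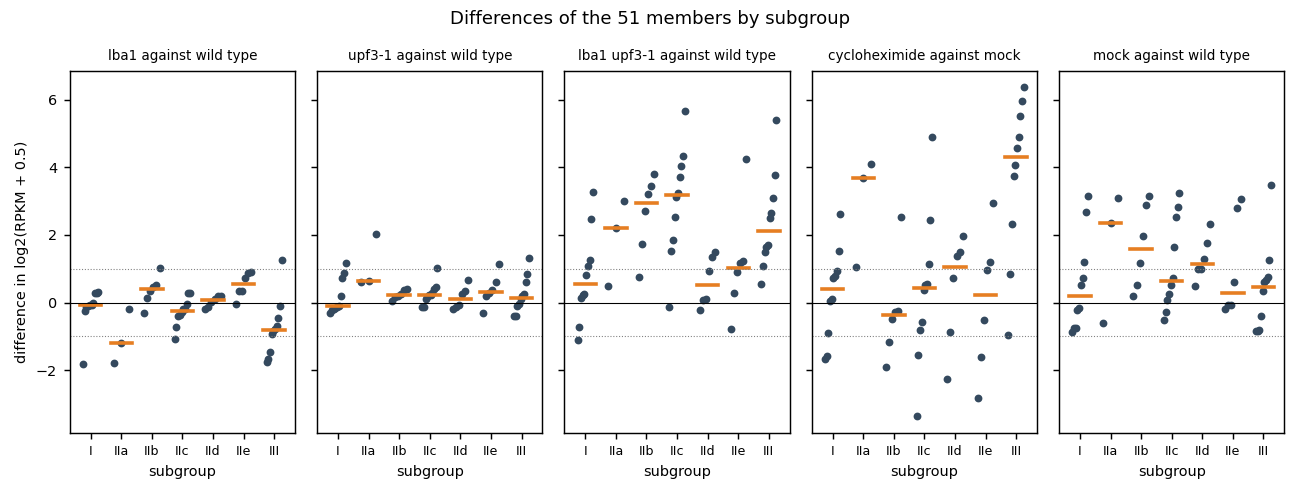
Differences in log2(RPKM + 0.5) of the 51 members by subgroup in the 5 comparisons; points are members, bars are medians and dotted lines mark 2-fold. Group III has a median of 4.32 for cycloheximide against mock, subgroup IIc one of 3.18 for lba1 upf3-1 against wild type, and 7 members lie below the lower dotted line in lba1.

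By these calls, lba1 had 7 lower members: WRKY33, WRKY40, WRKY46, WRKY70, WRKY54, WRKY18 and WRKY45. With a pseudocount of 0.1 there were 11, with WRKY30, WRKY38, WRKY51 and WRKY62 added. Their plain ratios were 5.1, 3.5 and 2.55-fold lower for the first 3 and the bound given above for WRKY62. In lba1 the 2 higher members were WRKY41 and WRKY72, followed by WRKY14, WRKY65 and WRKY29 (0.74) within 2-fold. The 5 higher members of upf3-1 were WRKY18, WRKY46, WRKY26 (1.18), WRKY22 and WRKY75, and its lowest were WRKY63 (−0.40), WRKY62 (−0.39), WRKY32, WRKY27 and WRKY20 (−0.23), all within 2-fold. WRKY18 and WRKY46 were thus lower in lba1 and higher in upf3-1, and both comparisons use the same wild type column. In mock against wild type the lowest were WRKY44, WRKY38 (−0.83), WRKY54, WRKY70 and WRKY2. With 0.5 added all were within 2-fold, but in plain RPKM WRKY38 was 2.9-fold, WRKY44 2.09-fold and WRKY54 2.05-fold lower. In the same comparison the highest were WRKY30, WRKY48, WRKY6, WRKY25 (3.16) and WRKY40 (3.10). Mock seedlings differed from untreated ones in the transfer to liquid and the 4 h in it, which the design does not separate.

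The double mutant and the cycloheximide comparisons share no column and could be set side by side. Of the 51 members 17 were higher in both, which is 50% of the 34 higher in lba1 upf3-1 and 77.3% of the 22 higher with cycloheximide. Over all loci, 1020 were higher in both, 23.7% and 38.5% of those lists. The 17 were WRKY11, WRKY15, WRKY18, WRKY22, WRKY25, WRKY30, WRKY33, WRKY38, WRKY41, WRKY46, WRKY48, WRKY51, WRKY53, WRKY60, WRKY62, WRKY70 and WRKY72. Of the 4 members that passed the minimum mean through 1 column, only WRKY62 was among them. Without those 4, the lists of the double mutant and of cycloheximide held 31 and 20 members. WRKY4, WRKY9, WRKY14, WRKY45 and WRKY75 were higher in lba1 upf3-1 and lower with cycloheximide (6.31% of all loci). Of these, WRKY4 lost both calls under median scaling and the lba1 upf3-1 call under quantile normalization, and WRKY75 lost the cycloheximide call under both scalings. WRKY17, WRKY23, WRKY40, WRKY55 and WRKY69 were higher with cycloheximide and within 2-fold in lba1 upf3-1 (6.33% of all loci). Another 12 members were higher in lba1 upf3-1 and within 2-fold with cycloheximide (10.2% of all loci). WRKY3, WRKY39, WRKY47 and WRKY65 were lower with cycloheximide and within 2-fold in lba1 upf3-1 (22.2% of all loci). A further 7 members were within 2-fold in both (27.6% of all loci). Under median scaling, WRKY28, WRKY50 and WRKY54 of the 12 became higher with cycloheximide. So did WRKY2, WRKY7, WRKY20 and WRKY27 of the 7. Quantile normalization made the same changes except for WRKY50. With a pseudocount of 0.1, WRKY54 of the 12 and WRKY27 of the 7 became higher with cycloheximide, and WRKY63 of the 12 became lower. The sizes of the differences were weakly related, with Pearson's r of 0.118 across the 51 members and 0.203 across the 19829 loci. These values are across genes of the same 4 columns, and genes are not replicates. Of the 7 members lower in lba1, WRKY18, WRKY33, WRKY40, WRKY46 and WRKY70 were higher with cycloheximide, WRKY45 was lower and WRKY54 was within 2-fold. Over all loci 13.4% were higher with cycloheximide. The share among the loci lower in lba1 was not computed, so this overlap has no background beside it.

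**Figure D5:**
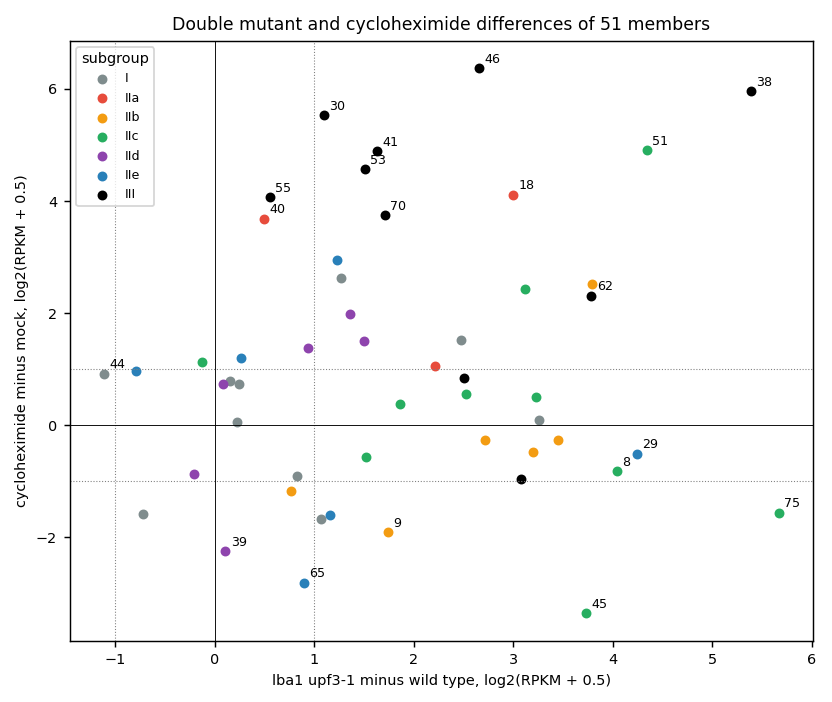
Difference of lba1 upf3-1 from wild type (x axis) and of cycloheximide from mock (y axis), both in log2(RPKM + 0.5), for the 51 members coloured by subgroup; numbers are WRKY numbers and dotted lines mark 2-fold. WRKY46, WRKY38 and WRKY51 lie at the upper right, and WRKY45 and WRKY75 at the lower right.

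W box matches were counted by call, and the shares differed between calls. In mock against wild type, 13 of the 21 higher members had a match in their 250 bases and 6 of the 30 within 2-fold. For cycloheximide against mock these counts were 11 of 22 higher, 5 of 20 within 2-fold and 3 of 9 lower, and for lba1 upf3-1 15 of 34 higher and 4 of 16 within 2-fold. In lba1, 2 of the 7 lower members had a match, and both higher ones did. Over all genes the share was 28.4%, and the counts are a description of the letters in these windows.

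Exons of 5 members lie for more than 10% of their bases under another annotated locus, and the library kit does not mark strand, so reads there cannot be assigned. For WRKY41 the overlap is 41.7%, with 3xHMG-box1, a gene of a mitotic chromosome protein, which was at 6.29 RPKM in wild type, at 8.89, 4.75 and 2.12 in the lba1, upf3-1 and double mutants, and at 5.23 and 2.08 in mock and cycloheximide. For WRKY53 it is 20.5%, with the related gene 3xHMG-box2, at 25.8, 21.9, 11.0, 3.05, 11.6 and 2.02 RPKM in the same order. In lba1 upf3-1 and with cycloheximide both were below WRKY41 and WRKY53, and in the other 4 columns above them. The part of 3xHMG-box1 in the higher lba1 level of WRKY41 was not tested. The overlaps of WRKY29 (18%, with a locus at most at 0.122 RPKM), WRKY69 (21.1%) and WRKY61 (11.5%) were the others. The protein-coding neighbour of WRKY69, AT3G58720, was at 7.88 RPKM in mock and 11.6 with cycloheximide, above WRKY69 in both, and its part in the higher call of WRKY69 was not tested.

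Partners and reported targets of WRKY proteins were described from 3 lists. Their counts stand beside shares over all loci of 5.43% higher and 1.64% lower in lba1, 3.61% and 0.767% in upf3-1, 21.7% and 22.2% in lba1 upf3-1, 13.4% and 39.2% with cycloheximide, and 12.4% and 11.3% in mock. VQ proteins bind the WRKY domain and adjust its activity. Of 9 VQ genes, 1 was lower in lba1, 1 higher in upf3-1, 4 higher in lba1 upf3-1, 7 higher with cycloheximide and 6 higher in mock, and 0 went the other way in any of these. The medians of the list were −0.77 in lba1, 0.40 in upf3-1, 0.82 in the double mutant, 1.43 with cycloheximide and 1.19 in mock. MKS1, which links WRKY33 to the kinase MPK4, was at 2.82 RPKM in wild type, 13.4 in mock and 105 with cycloheximide (2.93). SIB1, a coactivator of WRKY33, was at 3.88 RPKM in lba1 against 16.8 in wild type (−1.98), and at 259 with cycloheximide against 32.5 in mock (2.98).

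The MAP kinase cascade upstream of several WRKY proteins had 10 listed genes, of which 3 were higher in lba1 upf3-1, 4 higher in mock, and 4 higher and 1 lower with cycloheximide. The 3 of 10 in lba1 upf3-1 is near the share over all loci. MPK3 was at 80.6 RPKM in mock and 1701 with cycloheximide (4.39), while MPK6 was at 30.1 and 11.5 (−1.35). MPK11 was the single cascade gene past 2-fold in lba1 (−1.62), and it was at 21.9 RPKM in lba1 upf3-1 against 1.51 in wild type (3.48). No cascade gene was past 2-fold in upf3-1. The medians were −0.34, 0.12, 0.65, 0.58 and 0.75 for lba1, upf3-1, the double mutant, cycloheximide and mock.

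Of 15 genes reported as WRKY targets, 5 were lower and 1 higher in lba1, 1 was higher in upf3-1, 10 were higher and 2 lower in lba1 upf3-1, 7 were higher and 4 lower with cycloheximide, and 7 were higher and 1 lower in mock. The medians were −0.25, 0.04, 2.54, 0.32 and 0.98 in that order. PAD3, the camalexin gene activated by WRKY33, was at 10.6 RPKM in wild type, at 2.78, 7.22 and 128 in the lba1, upf3-1 and double mutants, and at 139 and 2.04 in mock and cycloheximide. Its cycloheximide difference was thus −5.78, and that of WRKY33 2.62. ACS6, an ethylene synthesis gene and another reported target of WRKY33, was at 6.33 RPKM in lba1 against 26.9 in wild type (−2.003), and at 398 with cycloheximide against 55.7 in mock (2.83). PBS3, a salicylic acid synthesis gene, had differences of 3.90 in lba1 upf3-1 and 4.75 with cycloheximide. PHO1, which WRKY6 and WRKY42 repress, was lower in lba1 upf3-1 (−1.09), mock (−1.15) and with cycloheximide (−2.69). GL2, a trichome gene downstream of WRKY44, was at 0.684 RPKM in lba1 upf3-1 against 2.93 in wild type (−1.53).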

How the data were processed

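The authors deposited gene expression as RPKM for 33602 loci, 1 column for each of the 6 groups of 2 libraries, per the file headers. Per the submitters' processing notes, TAIR10 was the build. The way reads were aligned, counted, scaled by length and merged over a pair of libraries is not given in the sources used here. Locus codes, gene models, overlaps and sequences were taken from RefSeq's TAIR10.1 annotation and genome, in which all 56 members were found; no coordinate comes from the deposited file.

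The planned fit across 12 libraries needs a column per library, which the table lacks, so a rule of size was used: a difference of at least 2-fold on log2(RPKM + 0.5) among loci whose columns average 1 RPKM or more. Alternatives changed the pseudocount, the minimum mean, the scaling and the fold. The members, subgroups and gene lists were chosen with earlier results of these data known. Named were the 5 highest and 5 lowest members of each comparison, sets of close relatives, the other members by level, and some genes of each list past 2-fold. These list genes were not always those with the greatest differences. With cycloheximide RRTF1 (8.35), JAZ8 (6.16) and VQ29 (5.39), and in lba1 upf3-1 CYP71A12 (5.01), had greater ones and were not described. MPK6, GL2 and PHO1 were named after their values were seen. Depth was estimated from the low values of 623 transfer RNA loci, which in each column were whole multiples of 1 read for 91.9% to 97.4% of the 86 to 114 values used, within 0.05 of a read plus rounding. The estimate was tested on simulated data. Reads and floors for members use RefSeq transcript lengths and cover counting error only. Python 3.11.15, pandas 2.3.3, numpy 2.4.6, scipy 1.17.1 and matplotlib 3.10.9 were used.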

Additional observations from a re-analysis of the deposited data

How the results depend on the processing

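Pseudocounts of 0.1 and 1 RPKM, a minimum mean of 5 RPKM or none, median scaling, quantile normalization and a 3-fold rule were tried. Of 95 recomputed counts and medians, 75 stayed within 1.5 times the reported count or, for a median, within the median counting error of its comparison, and 20 moved further. Within that tolerance, members higher with cycloheximide numbered from 16 (3-fold) to 30 (median scaling), against 22, and members higher in lba1 upf3-1 from 24 (minimum mean of 5) to 35 (pseudocount of 0.1), against 34. The minimum mean of 5 RPKM left fewer members to count, so 24 and 34 are not out of the same number. No paired analysis was possible because the table holds 1 column per group, and for the same reason no replicate could be left out. In lba1, lower members numbered 11 with a pseudocount of 0.1 and 4 at 3-fold; higher ones numbered 1 with a pseudocount of 1, median scaling or quantile normalization and 0 at 3-fold; and the median was −0.26 under quantile normalization. In upf3-1, 1 member was higher at 3-fold. In lba1 upf3-1, the 1 lower member became 0 with a pseudocount of 1, a minimum mean of 5, quantile normalization or 3-fold, and the median was 1.38 under median scaling. With cycloheximide, 5 members were lower under median scaling, and the median was 1.22 with a minimum mean of 5, 1.49 under median scaling and 1.15 under quantile normalization. In mock, 2 members were lower with a pseudocount of 0.1, and the median was 0.83 with that pseudocount and 1.09 with a minimum mean of 5. The cause of these shifts was not tested. WRKY72 in lba1, WRKY75 in upf3-1, WRKY21 in mock and WRKY60 with cycloheximide lay near 2-fold, as did WRKY4, WRKY30 and WRKY44 in lba1 upf3-1. All passed below it under 1 or more of the pseudocounts and scalings. With cycloheximide WRKY3 (−1.60), WRKY4 (−1.67), WRKY75 (−1.56) and WRKY47 (−1.17) lost their lower calls under median scaling. WRKY47 and WRKY75 also lost them under quantile normalization. These scalings shifted the median of all loci in that comparison by 0.66 and 0.54.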

Other observations

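The annotation names 15 further WRKY loci outside the 56 described, and 4 of them had a mean of at least 1 RPKM. WRKY59 was at 0.046 RPKM in wild type, at 0, 0.038 and 3.05 in lba1, upf3-1 and the double mutant, and at 0.151 and 41.9 in mock and cycloheximide. WRKY36 was at 3.66, 5.88, 3.86, 7.68, 5.50 and 2.36 RPKM in the same order, with a log2 difference of −1.07 for cycloheximide against mock. WRKY19 was at 4.54 RPKM in wild type and 11.4 in lba1 upf3-1, and TTR1 lay between 7.22 and 14.9 RPKM in all 6 columns. WRKY66, WRKY58 and WRKY64 were low but each had 1 column above the others, at 3.98 and 4.44 RPKM in lba1 upf3-1 for WRKY66 and WRKY58 and at 1.51 with cycloheximide for WRKY64.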
